A study of Mus musculus with 16 samples.

Results

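The 7 genes described here make, package, clear, break down or sense the inhibitory transmitter GABA in the prefrontal cortex of mice. Gad1, Gad2, Slc32a1, Slc6a11, Abat, Gabbr1 and Gabbr2 were taken by name from the 19999 genes of the deposited table, and all 7 were found. Single nuclei of the medial PFC of 16 male mice, 22 weeks old, were sequenced on the 10x Genomics platform, with 4 mice in each of 4 groups. WT controls and 3xTg-AD controls breathed air. Alcohol-exposed WT mice and alcohol-exposed 3xTg-AD mice were injected with ethanol and kept in intermittent alcohol vapor over repeated cycles. Per the paper, tissue was taken days after the last vapor exposure and after testing in a water maze. The words alcohol and under alcohol stand below for this history of exposure. The mice of all 4 groups received pyrazole, which inhibits alcohol dehydrogenase, and were of a mixed B6;129 background. 3xTg-AD mice carry mutant human APP and tau transgenes driven by a neuronal Thy1 promoter and a mutant knock-in allele of presenilin 1, so that the genotype here stands for the whole set of alleles. Each mouse was sequenced as its own library, and the p-values below measure the spread between these mice. The questions asked by the design are whether the levels of these genes differ by genotype, by alcohol, or by both together.

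GABA is made from glutamate by the glutamate decarboxylases, encoded by Gad1 and Gad2, and is loaded into synaptic vesicles by the vesicular transporter VGAT, encoded by Slc32a1. After release it is taken back up, in astrocytes in part by the plasma membrane transporter encoded by Slc6a11, and broken down by GABA transaminase, the product of Abat. Gabbr1 and Gabbr2 encode the subunits of the GABA-B receptor, an obligate heterodimer in which the Gabbr1 product binds GABA and the Gabbr2 product couples to G proteins, which open potassium channels and lower transmitter release.

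The nuclei were placed in cell classes by marker genes that did not include the 7 genes. Of 114512 nuclei, 71189 fell in 8 broad classes, among them 43758 glutamatergic and 9190 GABAergic nuclei and 7727 astrocytes, and 43323 (37.8%) fell in none. The markers of a class were highest in their own class for 9 of 9 GABAergic, 9 of 10 astrocyte and 6 of 8 glutamatergic markers, but for 11 of 16 of vascular leptomeningeal and mural cells and 3 of 6 of the L6 IT subclass, while the summed level of the glutamatergic markers was 2109 CPM in glutamatergic nuclei and 2375 CPM in another class. A mouse gave 9622031 to 17544364 UMIs (unique molecular identifiers, the counted molecules) and 329 to 739 GABAergic nuclei. Some libraries stood apart. WT control mouse 27 held 1029 of 1157 nuclei of a Meis2 interneuron cluster, 3xTg-AD control mouse 12 held 142 of 314 nuclei with striatal markers, and these nuclei were kept out of the GABAergic class. WT control mice 26 and 27 and 3xTg-AD control mouse 12 also held at least 17914 CPM of the ribosomal RNA-associated transcript Gm42418, where no other mouse passed 4249 CPM. A total of 1694 cell barcodes occurred in more than 1 mouse (3400 nuclei, 2.97%).

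The 3 genes of synthesis and packaging lie on chromosome 2 of the mouse genome (GRCm38, the build also called mm10), each on the plus strand: Gad2 at chr2:22622205-22693874, Gad1 at chr2:70553072-70602014 and Slc32a1 at chr2:158610767-158615748. Slc6a11 lies at chr6:114131241-114249952, Abat at chr16:8513429-8621568 and Gabbr1 at chr17:37045966-37075067, all on the plus strand, and Gabbr2 lies at chr4:46662305-46991873 on the minus strand. The antisense transcript Gm14205 overlaps Slc32a1 by 911 bases and had 21 UMIs in all, against 8146 of Slc32a1. The other 6 genes overlapped no gene of the table. Because Gad1, Gad2 and Slc32a1 shared their highest class in these data, the 300 bases around their RefSeq starts (250 before and 50 after, GRCm38.p6, plus strand) are shown, with each CG dinucleotide in capitals. The Gad2 window is chr2:22622077-22622376, the Gad1 window chr2:70561879-70562178, inside the annotated gene, and the Slc32a1 window chr2:158610508-158610807.
Gad2: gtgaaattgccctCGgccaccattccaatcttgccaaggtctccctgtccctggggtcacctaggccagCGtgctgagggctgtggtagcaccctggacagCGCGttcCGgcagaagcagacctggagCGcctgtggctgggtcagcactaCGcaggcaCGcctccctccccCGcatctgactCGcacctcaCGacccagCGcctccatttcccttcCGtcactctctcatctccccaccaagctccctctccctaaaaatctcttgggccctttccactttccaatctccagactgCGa
Gad1: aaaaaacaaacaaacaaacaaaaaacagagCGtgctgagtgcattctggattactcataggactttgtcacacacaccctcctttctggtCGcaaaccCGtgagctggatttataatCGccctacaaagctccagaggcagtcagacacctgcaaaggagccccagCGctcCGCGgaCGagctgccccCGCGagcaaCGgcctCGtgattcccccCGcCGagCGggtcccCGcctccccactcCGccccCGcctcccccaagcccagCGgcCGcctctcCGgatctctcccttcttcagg
Slc32a1: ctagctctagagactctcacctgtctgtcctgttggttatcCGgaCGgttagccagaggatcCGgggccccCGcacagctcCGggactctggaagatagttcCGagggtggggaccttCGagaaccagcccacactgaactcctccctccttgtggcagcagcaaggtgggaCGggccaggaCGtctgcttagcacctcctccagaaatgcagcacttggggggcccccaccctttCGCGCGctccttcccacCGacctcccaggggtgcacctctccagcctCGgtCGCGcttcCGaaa
These windows hold 14, 21 and 17 CG dinucleotides for Gad2, Gad1 and Slc32a1, against a median of 7 over 32851 promoters, and the GC content is 61.3% for Gad2 and 63.3% for Slc32a1, against a median of 52.7%. The letters TAATTA, a palindrome recognized by many homeodomain proteins, occur in none of these windows and in 5.29% of all promoters. The letters TATAAA, searched on both strands, occur once in the Gad1 window, in neither of the other windows and in 13.6% of all promoters. Windows of Slc6a11, Gabbr1 and Gabbr2 were read as well and hold neither set of letters; they hold 32, 18 and 46 CG dinucleotides.

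Gad1, Gad2 and Slc32a1 were highest in GABAergic nuclei in 16 of 16 mice. The values are CPM, the UMIs of a gene as a share of all UMIs of its mouse and class, scaled to a fixed total and adjusted by TMM factors, and they are compared between classes and mice within a gene, not between genes. Gad1 reached a median of 291 CPM over the mice in GABAergic nuclei (226 to 369 CPM). Its next class, OPC (oligodendrocyte progenitor cells), had a median of 89.4 CPM and glutamatergic nuclei had the lowest, at 23.7 CPM. Gad2 had a median of 353 CPM in GABAergic nuclei (263 to 430 CPM), followed by 79.9 CPM in microglia and perivascular macrophages and ending at 23.5 CPM in glutamatergic nuclei. Slc32a1 had a median of 177 CPM in GABAergic nuclei, with a wider range of 83.5 to 333 CPM, against 34.8 CPM in the next class and 11.6 CPM in glutamatergic nuclei. Several neighbors among the other classes did not differ beyond the spread between mice. For Gad1, astrocytes exceeded vascular leptomeningeal and mural cells in 7 of 16 mice, and those exceeded oligodendrocytes in 7 of 16. Since the classes were drawn from the same nuclei, the order of classes is a description with no test.

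The uptake gene Slc6a11 was highest in astrocytes and the breakdown gene Abat in astrocytes and GABAergic nuclei. Slc6a11 led there in 16 of 16 mice, at a median of 131 CPM (93.6 to 157 CPM), against 26.8 CPM in OPC and 9.79 CPM in glutamatergic nuclei. When each nucleus was instead placed by its counts of markers alone, the astrocyte median of Slc6a11 was 72.2 CPM, still the highest class. Of 63371 nuclei with a broad class by both ways, 8534 were given a different class by marker counts. Abat had its highest medians in astrocytes (92.5 CPM, 58.5 to 115 CPM) and GABAergic nuclei (73.7 CPM, 57.7 to 90.3 CPM), and the astrocyte level was the higher in 13 of 16 mice. Glutamatergic nuclei again had the lowest Abat level, 19.8 CPM, which lay below the next lowest class in 16 of 16 mice.

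The receptor subunits were spread over all classes. Gabbr1 medians ran from 348 CPM in oligodendrocytes to 252 CPM in glutamatergic nuclei, and no class was the highest in more than 8 mice. Among the named classes, Gabbr2 was highest in GABAergic nuclei (202 CPM, 152 to 260 CPM), above microglia (166 CPM) in 15 of 16 mice and above every other class in 9, and its lowest median was 112 CPM in endothelial cells. Neighbors in the Gabbr1 order, such as oligodendrocytes and astrocytes (338 CPM; oligodendrocytes higher in 10 of 16 mice), did not differ beyond their spread.

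**Figure D1:**
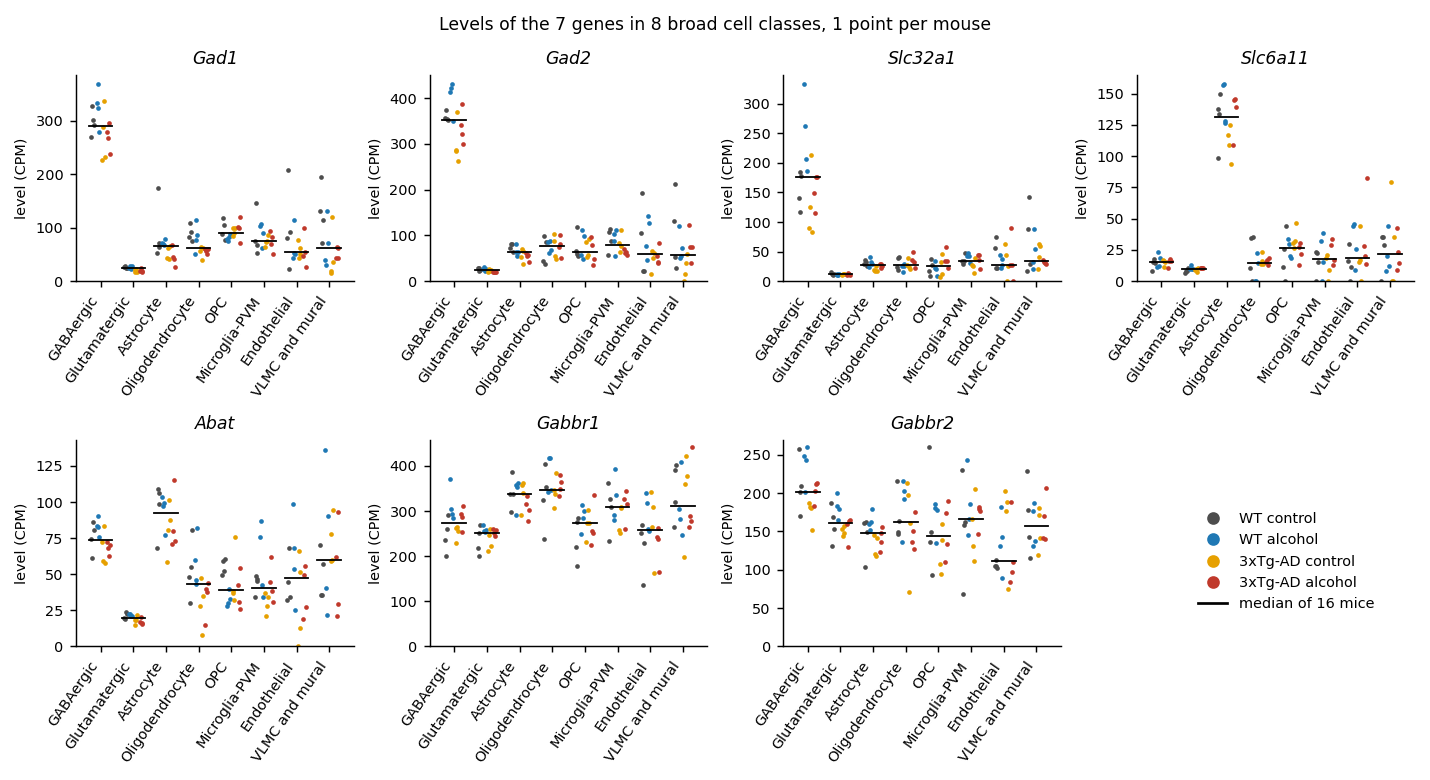
Levels of each gene in CPM (y axis) by broad class (x axis), 1 point per mouse colored by group, with a bar at the median of 16 mice. Gad1, Gad2 and Slc32a1 stand out in GABAergic nuclei (medians of 291, 353 and 177 CPM) and Slc6a11 in astrocytes (131 CPM), whereas Gabbr1 (252 to 348 CPM) and Gabbr2 (112 to 202 CPM) have medians within a narrower range.

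Among the GABAergic subclasses, Lamp5 nuclei, which include neurogliaform cells, had the most Gad1, Gad2 and Gabbr2 in every mouse. Gad1 reached a median of 641 CPM in Lamp5 nuclei (464 to 782 CPM), followed by 299.5 CPM in Pvalb, 269.7 CPM in Vip, 269.0 CPM in Sncg and 138 CPM in Sst nuclei. Sst nuclei lay below Sncg nuclei in 15 of 16 mice, and Vip and Sncg nuclei did not differ beyond their spread. Gad2 had a median of 871 CPM in Lamp5 nuclei (686 to 1094 CPM) and 258 to 298 CPM in the other 4 subclasses, so that Sst nuclei were low in Gad1 but not in Gad2. Slc32a1 did not share the Lamp5 peak. Its medians ran from 173 CPM in Lamp5 to 135 CPM in Vip nuclei, and each of the 5 subclasses was the highest in 2 to 4 mice. Gabbr2 had a median of 344 CPM in Lamp5 nuclei (245 to 505 CPM), above Pvalb (208 CPM) in 16 of 16 mice, and its lowest median was 114 CPM in Sncg nuclei. Gabbr1 medians ran from 301 CPM in Vip to 234 CPM in Sncg nuclei with overlapping ranges.

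Gabbr2 also differed among glutamatergic subclasses. L6 CT (corticothalamic) nuclei had a median of 227 CPM (159 to 268 CPM) and the highest level of the 6 subclasses in 16 of 16 mice. L6 IT, L5 IT and L2/3 IT (intratelencephalic) nuclei followed at 178, 175 and 159 CPM, and L5 ET nuclei, at 109.7 CPM, lay below L2/3 IT nuclei in 16 of 16 mice. L5/6 NP nuclei had the lowest median, 95.8 CPM, although their Gabbr1 median of 285 CPM was the highest of the 6. Medians of Gad1 lay between 20.02 and 28.7 CPM in all 6 glutamatergic subclasses.

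**Figure D2:**
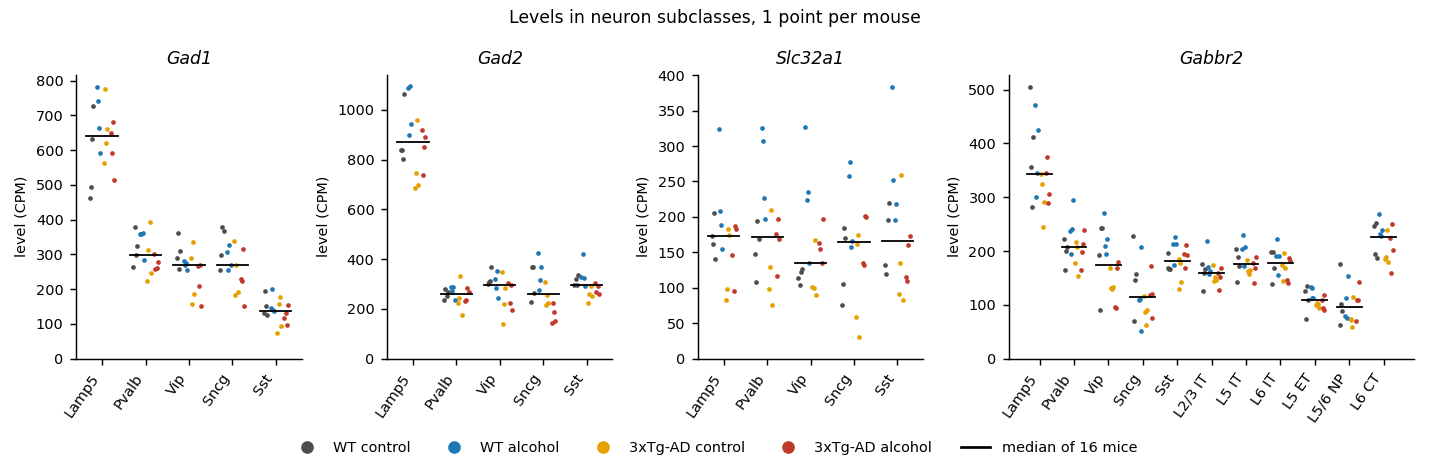
Levels in CPM (y axis) of Gad1, Gad2 and Slc32a1 in 5 GABAergic subclasses and of Gabbr2 in 5 GABAergic and 6 glutamatergic subclasses (x axis), 1 point per mouse, bar at the median. Lamp5 nuclei lead for Gad1 (641 CPM), Gad2 (871 CPM) and Gabbr2 (344 CPM) but not apart from the others for Slc32a1 (173 CPM).

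Shares of nuclei at equal depth gave the same highest and lowest broad classes for Gad1, Gad2, Slc32a1 and Slc6a11. The order of the classes between them differed. For Gad1, endothelial cells had a higher share than astrocytes (4.34% against 3.22%) but a lower median level (54.6 against 65.1 CPM). After thinning every nucleus to 500 UMIs, 13.5% of GABAergic nuclei held a Gad1 UMI (9.37% to 17.8% over mice), against 1.23% of glutamatergic nuclei and 3.22% to 4.62% of the other classes. Without thinning, Gad1 was seen in 39.0% of GABAergic nuclei (median depth 1810 UMIs) and 5.85% of glutamatergic nuclei (2477 UMIs). The share among glutamatergic nuclei, which are not known to make GABA, was lower than among the non-neuronal classes, whose nuclei are shallower, and the part of free RNA and of doublets in these shares was not tested. In thinned Lamp5 nuclei the share was 27.2% for Gad1 and 32.9% for Gad2, and in thinned Sst nuclei it was 6.47% for Gad1 and 13.96% for Gad2. Slc32a1 was seen in 8.37% of thinned GABAergic nuclei, with a range over mice of 3.68% to 16.0%. Slc6a11 was seen in 6.44% of thinned astrocytes and in at most 1.26% of any other broad class. Both decarboxylases were seen together in 19.9% of unthinned GABAergic nuclei and 0.414% of glutamatergic nuclei.

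Most UMIs of the GABA genes lay outside the GABAergic class. Of 16912 Gad1 UMIs, 31.3% came from GABAergic nuclei, 37.5% from nuclei in no named cluster, 15.9% from glutamatergic nuclei and 4.67% from Meis2 nuclei. The Meis2 nuclei supplied 46.3% of the Gad1 UMIs of WT control mouse 27, in which the level over all nuclei was 164 CPM. Summed over mice, without TMM factors, Meis2 nuclei held 551 CPM of Gad1 and 251 CPM of Gad2. The nuclei in no named cluster held 117 CPM of Gad1, 124 CPM of Gad2, 49.9 CPM of Slc32a1 and 35.2 CPM of Slc6a11 by the same measure. Their 92.8 CPM of Abat, 367 CPM of Gabbr1 and 257 CPM of Gabbr2 were at or above the highest median of a named class, so the orders of classes given here hold among the named classes only. Gabbr1 (62382 UMIs) and Gabbr2 (40735 UMIs) came for 47.1% and 47.1% from glutamatergic nuclei, the most numerous class.

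The genes whose levels over 17 classes and subclasses were most like 6 of the 7 genes were found by Pearson correlation over 11621 genes, on mean levels that share the same libraries. For Gad1 these were Gad2 (r = 0.979), Erbb4 (r = 0.949) and Slc32a1 (r = 0.945), and for Gad2 they were Gad1, Slc32a1 (r = 0.960) and Dlx1 (r = 0.949). For Slc32a1 they were Gm14204 (r = 0.965), Dlx1 (r = 0.961) and Gad2 (r = 0.960), and Gm14204 lies 43 bases from Slc32a1 on the other strand. Erbb4 and Dlx1 were among the markers by which cell classes were named. Slc6a11 was most like Fads1 (r = 0.904), Fads2 (r = 0.878) and Agpat3 (r = 0.878), enzymes of lipid synthesis. Gabbr1 was most like Acot13 (r = 0.868), Gsk3a (r = 0.849) and Paxx (r = 0.849), and Gabbr2 most like Gm28154 (r = 0.772), Pi15 (r = 0.743) and Rims4 (r = 0.733). Although their products form a single receptor, Gabbr1 and Gabbr2 had a correlation of r = 0.196.

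Over all nuclei of a mouse, Gad1 and Gad2 were lower in every 3xTg-AD mouse than in every WT mouse, a separation seen after the values were known and shared by 0.4% of 16767 genes. In such sums fewer cells of a type and less RNA per cell cannot be told apart. Gad2 stood at 83.6, 108, 86.6 and 86.7 CPM in WT controls (mice 26, 27, 28 and 36), at 101, 105, 98.4 and 94.6 CPM in alcohol-exposed WT mice (6, 7, 17 and 18), at 67.8, 74.7, 76.6 and 70.01 CPM in 3xTg-AD controls (12, 13, 14 and 21), and at 73.4, 69.7, 81.6 and 63.9 CPM in alcohol-exposed 3xTg-AD mice (4, 31, 33 and 34). Gad1, in the same order, stood at 73.9, 164, 73.6 and 81.8 CPM, at 91.02, 88.4, 91.5 and 85.4 CPM, at 50.7, 67.7, 71.5 and 64.4 CPM, and at 67.9, 72.6, 71.0 and 50.5 CPM. The 8 3xTg-AD mice thus ended at 81.6 CPM of Gad2 where the 8 WT mice began at 83.6 CPM, and at 72.6 CPM of Gad1 where the WT mice began at 73.6 CPM. Without Meis2 and striatal nuclei, WT control mouse 27 held 101 CPM of Gad1 and 83.6 CPM of Gad2. Slc32a1 stood at 34.8, 42.9, 37.3 and 42.1 CPM in WT controls, at 54.96, 50.7, 43.9 and 40.6 CPM in alcohol-exposed WT mice, at 23.6, 30.4, 36.9 and 28.7 CPM in 3xTg-AD controls, and at 33.2, 33.1, 35.8 and 30.3 CPM in alcohol-exposed 3xTg-AD mice, where the WT controls overlapped both 3xTg-AD groups and the alcohol-exposed WT mice overlapped neither.

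Of the 7 genes, 1 passed the test over all nuclei, in the comparison of alcohol-exposed 3xTg-AD mice against alcohol-exposed WT mice. In that comparison 0.942% of 16767 genes passed an adjusted p of 0.05 (the call used here) in edgeR's quasi-likelihood test with Benjamini-Hochberg adjustment, the test used throughout. Gad2 fell by 0.46 on the log2 scale (SE 0.10, adjusted p = 0.0264). Slc32a1 had a fitted log2 difference of -0.52 (SE 0.13, adjusted p = 0.0615), Gad1 of -0.44 (SE 0.20, adjusted p = 0.345), Abat of -0.38 (SE 0.14, adjusted p = 0.211) and Gabbr2 of -0.27 (SE 0.12, adjusted p = 0.324), in edgeR. For these 5 genes the 4 mice of each group did not overlap, which held in this direction for 5.24% of all genes. The receptor subunit Gabbr1 (-0.07, SE 0.10) and the astrocytic transporter Slc6a11 (-0.01, SE 0.15) overlapped between the groups. Among controls, and between alcohol-exposed 3xTg-AD mice and WT controls, the groups did not overlap for Gad1 and Gad2, which held in this direction for 2.33% and 6.43% of all genes. These genes were singled out after their values were seen. The Gad2 call was lost when any of WT alcohol-exposed mice 6, 7, 17 and 18 or 3xTg-AD alcohol-exposed mice 4, 31 and 34 was left out (log2 fold changes of -0.49 to -0.41, edgeR adjusted p = 0.0522 to 0.101). Slc32a1 passed in edgeR when 3xTg-AD control mouse 12 (adjusted p = 0.0327) or 14 (adjusted p = 0.0402) was left out. It also passed in DESeq2 (log2 fold change -0.50, adjusted p = 0.0105).

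The same genes were compared without alcohol and between the outer groups, which share mice with the comparison above. In 3xTg-AD controls against WT controls, none of the 7 genes was called over all nuclei in edgeR (0.435% of all genes were), 3 had an unadjusted p below 0.05, as did 8.18% of all genes, and DESeq2 called 1. That gene was Gad2 (log2 fold change -0.34, SE 0.10, adjusted p = 0.195 in edgeR and 0.0436 in DESeq2). Gad1 had a fitted log2 difference of -0.63 (SE 0.21), which was -0.26 without WT control mouse 27, -0.39 without Meis2 and striatal nuclei and -0.20 without the 3 mice richest in Gm42418. In alcohol-exposed 3xTg-AD mice against WT controls, none was called in edgeR (4.06% of all genes were), 2 had an unadjusted p below 0.05, as did 20.1% of all genes, and DESeq2 called Gad2. There Gad2 had a fitted log2 difference of -0.34 (SE 0.10, adjusted p = 0.0577 in edgeR and 0.0138 in DESeq2), Gad1 of -0.58 (SE 0.20, and -0.22 when WT control mouse 27, or -0.24 when the 3 mice richest in Gm42418, were left out), Slc32a1 of -0.25 (SE 0.13), Abat of -0.19 (SE 0.14), Gabbr2 of -0.08 (SE 0.12), Gabbr1 of 0.09 (SE 0.10) and Slc6a11 of 0.22 (SE 0.15). Slc6a11 was at 0.11 without WT control mouse 26 and 0.13 without alcohol-exposed 3xTg-AD mouse 33, and Abat at -0.12 without alcohol-exposed 3xTg-AD mouse 34 and -0.30 without the 3 mice richest in Gm42418. The values of Gabbr1 and Gabbr2, near 0, also moved by over 1.5 times or changed sign without single mice. Alcohol within a genotype moved none of the 7 genes over all nuclei past the threshold in edgeR or DESeq2. In edgeR the unadjusted p was below 0.05 for 1 gene in WT mice, where it was for 14.2% of all genes, and for 0 genes in 3xTg-AD mice, where it was for 12%. The shares of all genes called were 0.0179% and 0.483%.

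**Figure D3:**
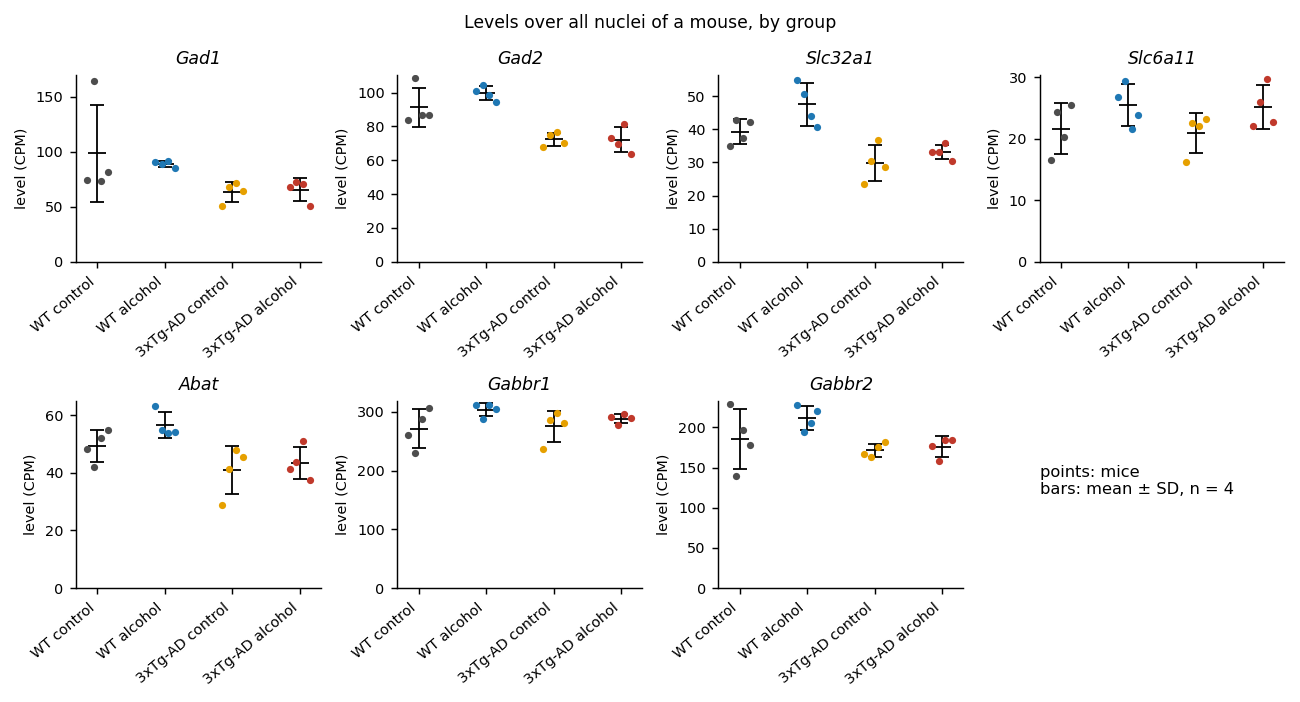
Levels over all nuclei in CPM (y axis) by group (x axis), 1 point per mouse, with mean and SD of 4 mice. All 8 3xTg-AD mice lie below all 8 WT mice for Gad1 (at most 72.6 against at least 73.6 CPM) and Gad2 (at most 81.6 against at least 83.6 CPM), as they do for 0.4% of all genes, and WT control mouse 27 is set apart at 164 CPM of Gad1.

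The share of GABAergic nuclei is set beside these sums. GABAergic nuclei were 8.13% ± 1.21 of all nuclei in WT controls, 8.72% ± 0.89 in alcohol-exposed WT mice, 7.47% ± 0.59 in 3xTg-AD controls and 7.84% ± 0.93 in alcohol-exposed 3xTg-AD mice (SD, n = 4 each), and these ranges overlapped. Of the nuclei placed in a neuron class, GABAergic nuclei were 16.7% to 18.3% in WT controls and 14.2% to 16.1% in 3xTg-AD controls, and 18.4% to 20.5% in alcohol-exposed WT mice and 15.4% to 18.02% in alcohol-exposed 3xTg-AD mice, with no overlap in either pair. Their share of all UMIs was 9.12% to 9.79% in alcohol-exposed WT mice and 7.08% to 8.60% in alcohol-exposed 3xTg-AD mice, with no overlap, but 7.25% to 9.25% in WT controls and 7.15% to 7.94% in 3xTg-AD controls, with overlap. The share among nuclei placed in a neuron class leaves out the 41852 nuclei in no named cluster. Most of these lay in clusters of 8375, 8282, 7444 and 10559 nuclei with 7 or 8 raised glutamatergic markers beside glial ones. The share therefore depends on the naming rules. Nuclei in no named cluster were on average 33.1% of all nuclei in WT controls and 40.9% in alcohol-exposed WT mice. In 3xTg-AD mice they were 34.5% in controls and 33.7% after alcohol exposure. The part of the GABAergic shares in the sums over all nuclei was not tested. Within GABAergic nuclei no comparison called Gad2, whose log2 fold change in 3xTg-AD against WT mice was -0.26 (SE 0.13) without alcohol and -0.26 (SE 0.12) under alcohol.

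Within cell classes, the fold changes of the 7 genes in alcohol-exposed 3xTg-AD mice against alcohol-exposed WT mice were mostly below 0. Of 40 tests of a gene in a broad class, 36 had a negative log2 fold change, with a median of -0.23 against 0.00 over all genes, and of 66 tests in neuron subclasses 57 did, with a median of -0.25 against 0.00 over all genes. Values below 0 were also in the majority for genotype without alcohol (30 of 40 and 53 of 66). The same held for alcohol-exposed 3xTg-AD mice against WT controls (26 of 40 and 45 of 66). All these tests repeat the 7 genes in the same mice, with subclasses nested in the broad classes, so they are not separate observations. The share of all genes with as many values below 0 was not counted. Few of the differences between the alcohol-exposed groups were larger than the spread between mice. In edgeR 0 of the 40 tests and 1 of the 66 were called, where 0.546% of all tests in broad classes and 0.37% of all tests in subclasses were, and DESeq2 called none. At an unadjusted p below 0.05 there were 10 and 9 in edgeR, and 8 and 8 in DESeq2, where 9.6% and 8.89% of all edgeR tests had one.

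The call was Gad2 in Sncg interneurons, a small subclass with 21 to 52 nuclei and 9 to 43 Gad2 UMIs per mouse. Its level was 425, 278, 316 and 370.4 CPM in alcohol-exposed WT mice (6, 7, 17 and 18) and 144, 222, 189 and 150.3 CPM in alcohol-exposed 3xTg-AD mice (4, 31, 33 and 34). All 4 WT mice lay above all 4 3xTg-AD mice. Tests within classes are named for small p-values, which makes such a separation likely, so it is not separate support. WT controls stood at 229, 367, 368 and 262 CPM and 3xTg-AD controls at 308, 216, 254 and 222 CPM, ranges that overlapped. Gad2 fell by 0.93 on the log2 scale between the alcohol groups (SE 0.25, edgeR adjusted p = 0.04998), at the edge of the threshold. The call was lost when any of WT alcohol-exposed mice 6, 17 and 18, 3xTg-AD controls 13 and 21 or 3xTg-AD alcohol-exposed mice 4, 33 and 34 was left out (log2 fold changes of -0.98 to -0.81, adjusted p = 0.0597 to 0.4), in DESeq2 (adjusted p = 0.237) and with no filter on low counts (adjusted p = 0.271).

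Gabbr2 in Vip nuclei and Slc32a1 in Pvalb nuclei had the next smallest p-values of this comparison and were not called. Gabbr2 in Vip nuclei was 270.1, 209, 194 and 223 CPM in alcohol-exposed WT mice and 96.7, 94.1, 168 and 179.5 CPM in alcohol-exposed 3xTg-AD mice, without overlap (log2 fold change -0.77, SE 0.24, edgeR adjusted p = 0.169). Slc32a1 in Pvalb nuclei was 326, 307, 227 and 197 CPM in alcohol-exposed WT mice and 176, 116, 197 and 169 CPM in alcohol-exposed 3xTg-AD mice, where the ranges met near 197 CPM (-0.68, SE 0.22, adjusted p = 0.213).

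**Figure D4:**
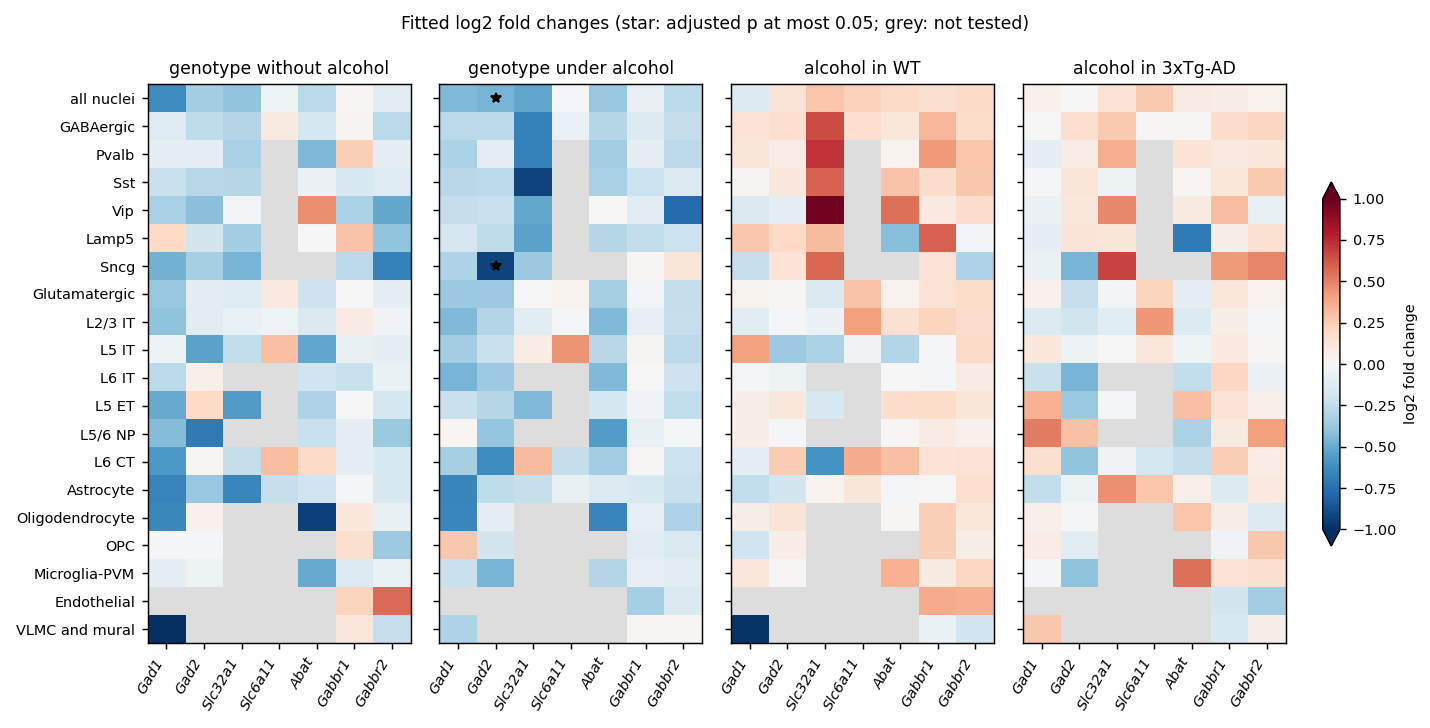
Fitted log2 fold changes (color) of the 7 genes (columns) in all nuclei, broad classes and neuron subclasses (rows) for 4 comparisons, with stars at calls and grey where a gene was filtered out. For genotype under alcohol, 36 of 40 broad-class and 57 of 66 subclass fold changes, which come from the same mice, lie below 0. For genotype without alcohol, 30 of 40 and 53 of 66 do. The 2 stars mark Gad2 in all nuclei (-0.46) and in Sncg nuclei (-0.93).

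Genotype without alcohol called none of the 7 genes within a class in edgeR or DESeq2. Of the edgeR tests, 6 of 40 in broad classes and 4 of 66 in subclasses had an unadjusted p below 0.05, as had 6.79% and 6.33% of all tests. The shares of all tests called were 0.245% and 0.17%, and the median log2 fold changes were -0.13 and -0.18. The smallest p belonged to Gad1 in glutamatergic nuclei, a class in which its level is low. It was 25.7, 27.9, 24.5 and 23.9 CPM in WT controls, against 17.1, 20.4, 23.0 and 17.8 CPM in 3xTg-AD controls (log2 fold change -0.38, SE 0.13, edgeR adjusted p = 0.294), with no overlap. Gad1 in vascular leptomeningeal and mural cells followed (-1.55, SE 0.63, adjusted p = 0.753), a class with 97 Gad1 UMIs in all, and its value was -0.84 without the 3 mice richest in Gm42418 and -2.35 without 3xTg-AD control mouse 14. Slc32a1 in astrocytes had a fitted log2 difference of -0.65 (SE 0.28, adjusted p = 0.644).

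Alcohol in WT mice called none of the 7 genes within a class in edgeR or DESeq2. Of the edgeR tests, 2 of 40 in broad classes and 4 of 66 in subclasses had an unadjusted p below 0.05, where 10.1% and 8.73% of all tests had one. The shares of all tests called were 0.0247% and 0.0364%, and the median log2 fold changes were 0.11 and 0.11. The vesicular transporter had the smallest p-values. Slc32a1 in Vip nuclei was 114, 103, 122 and 126 CPM in WT controls and 328, 224, 235 and 135 CPM in alcohol-exposed WT mice, all of them above the controls (log2 fold change 0.97, SE 0.26, edgeR adjusted p = 0.165). Without WT alcohol-exposed mouse 18 it passed, at 1.18 (adjusted p = 0.0300). Slc32a1 in Pvalb nuclei was 148, 108, 194 and 169 CPM in WT controls and lay above these in all 4 mice exposed to alcohol (0.72, SE 0.22, adjusted p = 0.297). Over the whole GABAergic class the same comparison gave 0.65 (SE 0.27, adjusted p = 0.419). The receptor subunit Gabbr1 in Lamp5 nuclei was 273, 207, 214 and 261 CPM in WT controls and 428, 349, 330.1 and 345 CPM in alcohol-exposed WT mice, again without overlap (0.59, SE 0.20, edgeR adjusted p = 0.369). In this comparison the groups did not overlap in 1 of 40 tests in broad classes and 4 of 66 in subclasses. Among tests of other genes of GABA metabolism, transport and GABA-B signaling they did not overlap in 3 of 112 and 12 of 150. The share without overlap over all tests was not counted.

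Alcohol in 3xTg-AD mice also called none of the 7 genes in edgeR or DESeq2, with 0 of 40 and 1 of 66 edgeR tests at an unadjusted p below 0.05, where 9.49% and 8.7% of all tests were. The shares of all tests called were 0.245% and 0.201%. The named tests were Slc32a1 in Sncg nuclei (log2 fold change 0.67, SE 0.34, edgeR adjusted p = 0.814), Gabbr1 in L6 CT nuclei (0.24, SE 0.12, adjusted p = 0.579) and Abat in Lamp5 nuclei (-0.71, SE 0.37, adjusted p = 0.733). Slc32a1 in Sncg nuclei was 58.7, 162, 175 and 30.3 CPM in 3xTg-AD controls and 136, 132, 202 and 200.4 CPM in alcohol-exposed 3xTg-AD mice, with overlap. Its log2 fold change was 0.29 without control mouse 21 and 1.05 without control mouse 13.

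Alcohol-exposed 3xTg-AD mice against WT controls gave no call among the 7 genes within a class in edgeR or DESeq2, where edgeR called 1.8% of all tests in broad classes and 1.14% in subclasses. Of the edgeR tests, 7 of 40 and 8 of 66 had an unadjusted p below 0.05, as had 14.3% and 12.3% of all tests. Gad2 in Sncg nuclei had a fitted log2 difference of -0.79 (SE 0.27, edgeR adjusted p = 0.250), Gad1 in L2/3 IT nuclei of -0.54 (SE 0.19, adjusted p = 0.122) and Gad1 in astrocytes of -0.91 (SE 0.31, adjusted p = 0.173). In astrocytes Gad1 was 53.7, 174, 63.6 and 72.3 CPM in WT controls and 66.8, 46.0, 41.9 and 25.9 CPM in alcohol-exposed 3xTg-AD mice, and the fold change was -0.47 without WT control mouse 27.

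The interaction of genotype and alcohol called none of the 7 genes in broad classes, subclasses or all nuclei in edgeR or DESeq2, and none had an unadjusted p below 0.05 in either tool. The share of all tests called in edgeR was 0.00704% in broad classes and 0.0% in subclasses and all nuclei. The smallest p-values belonged to Gabbr1 in Lamp5 nuclei (log2 fold change -0.53, SE 0.29), Gad2 in L6 CT nuclei (-0.65, SE 0.38, and -0.39 without 3xTg-AD alcohol-exposed mouse 34) and Gad2 in Sncg nuclei (-0.60, SE 0.36), with edgeR adjusted p from 0.982 to 1.0.

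**Figure D5:**
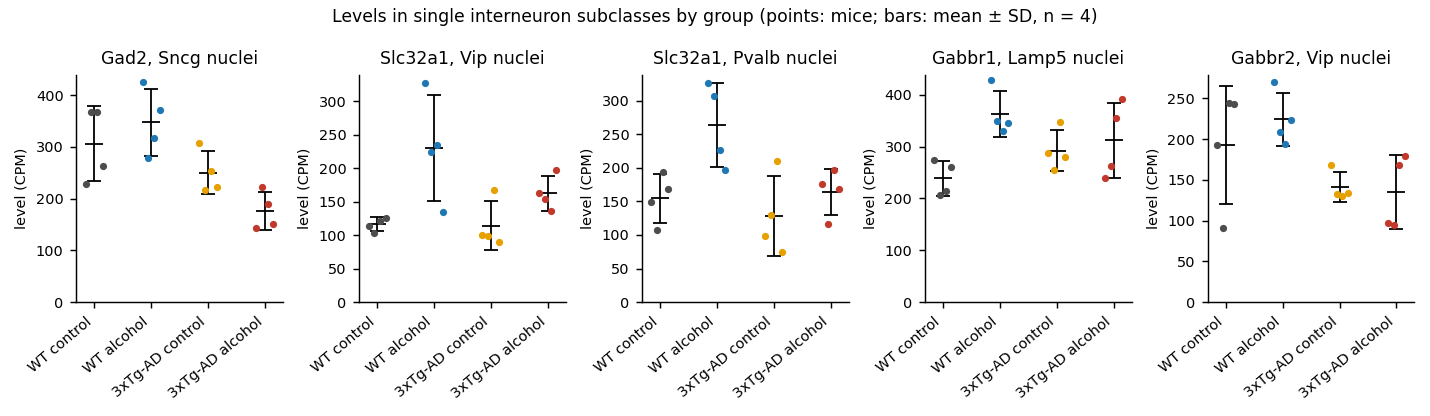
Levels in CPM (y axis) of 5 gene and subclass pairs by group (x axis), 1 point per mouse, with mean and SD of 4 mice. Gad2 in Sncg nuclei separates the 2 alcohol groups (at most 222 against at least 278 CPM), and Slc32a1 in Vip nuclei is higher in all 4 alcohol-exposed WT mice (at least 135 CPM) than in WT controls (at most 126 CPM).

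In its home class, the astrocytes, Slc6a11 was not called in any comparison. It was 98.4, 138, 134 and 149.6 CPM in WT controls, 157, 157, 128 and 127 CPM in alcohol-exposed WT mice, 117, 109, 125 and 93.6 CPM in 3xTg-AD controls, and 109, 145, 145 and 139 CPM in alcohol-exposed 3xTg-AD mice. The groups overlapped in each of the 5 pairwise comparisons. The fitted log2 differences were -0.23 (SE 0.17) for genotype without alcohol, 0.12 for alcohol in WT mice, 0.28 (SE 0.16) for alcohol in 3xTg-AD mice, -0.07 for genotype under alcohol and 0.05 between alcohol-exposed 3xTg-AD mice and WT controls, with edgeR adjusted p from 0.629 to 0.946.

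In GABAergic nuclei Slc32a1 varied between mice more than Gad1 and Gad2 did, a pattern singled out after its values were seen. The coefficient of variation was taken over the 16 mice of all 4 groups, so it includes differences between groups. For Slc32a1 in GABAergic nuclei it was 37.6%, against 13.8% for Gad1 and 14.3% for Gad2. In glutamatergic nuclei it was 12.2%, below the 16.6% of Gad1 and 14.6% of Gad2. Over all nuclei it was 21.8%, between 32.7% for Gad1 and 16.8% for Gad2. That Gad1 value includes WT control mouse 27 at 164 CPM, against 50.5 to 91.5 CPM in the other mice, and was not computed without it. In GABAergic nuclei Slc32a1 was 140.2, 117, 184 and 178 CPM in WT controls, 333, 263, 206 and 186 CPM in alcohol-exposed WT mice, 89.3, 126, 214 and 83.5 CPM in 3xTg-AD controls, and 149, 115, 177 and 177 CPM in alcohol-exposed 3xTg-AD mice. Some mice held like ranks across subclasses, which were drawn from the same library, and others did not. WT alcohol-exposed mouse 6 ranked 1st of 16 in Pvalb, Sst, Vip and Lamp5 nuclei and 2nd in Sncg nuclei, and WT alcohol-exposed mouse 7 ranked 1st to 3rd in all 5. 3xTg-AD control mouse 21 ranked 16th in Pvalb, Sst, Vip and Sncg nuclei and 8th in Lamp5 nuclei, whereas WT alcohol-exposed mouse 17 ranked between 2nd and 10th.

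Of the other 24 genes of GABA metabolism, transport and GABA-B signaling, Kcnj9 and Kctd12 were called. Kcnj9 encodes a subunit of the potassium channels that GABA-B receptors open, and Kctd12 an auxiliary subunit of the receptor itself. In GABAergic nuclei Kcnj9 was 157.5 ± 9.004 CPM in WT controls, 124 ± 22.4 CPM in alcohol-exposed WT mice, 112 ± 13.3 CPM in 3xTg-AD controls and 93.0 ± 8.47 CPM in alcohol-exposed 3xTg-AD mice (SD, n = 4 each). It fell by 0.76 on the log2 scale from the first to the last of these groups (SE 0.14, edgeR adjusted p = 0.00139), with no overlap, and in Pvalb nuclei by 0.75 (SE 0.17, adjusted p = 0.0122), from 209 ± 26.1 to 125 ± 19.3 CPM. The Pvalb call was lost without WT control mouse 28 (adjusted p = 0.0592) or 3xTg-AD alcohol-exposed mouse 33 (adjusted p = 0.0652), and the GABAergic call was kept without any single mouse. Over all nuclei, Kcnj9 had a fitted log2 difference of -0.33 (SE 0.11, adjusted p = 0.099).

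Kctd12 was lower in Sncg nuclei of alcohol-exposed 3xTg-AD mice than of alcohol-exposed WT mice, the subclass and comparison of the Gad2 call. Its mean was the highest of the 4 groups in alcohol-exposed WT mice. It was 424 ± 136 CPM in alcohol-exposed WT mice and 195.5 ± 69.5 CPM in alcohol-exposed 3xTg-AD mice (log2 fold change -1.11, SE 0.25, edgeR adjusted p = 0.0067), against 217 ± 86.6 CPM in WT controls, next to 266 ± 55.3 CPM in 3xTg-AD controls (SD, n = 4 each). The call was lost without WT alcohol-exposed mouse 17 (adjusted p = 0.102) or 3xTg-AD alcohol-exposed mouse 31 (adjusted p = 0.0942), and in DESeq2 (adjusted p = 0.0905). These 2 genes made up all 3 edgeR calls among the tests of the list in each comparison, which numbered 112 in broad classes and 150 in subclasses. The Kcnj9 calls, 1 in broad classes and 1 in subclasses, set against 1.8% and 1.14% of all tests called in that comparison, and the Kctd12 call, 1 in subclasses against 0.37%, are counts near or below the share over all tests. No gene of the list was called over all nuclei, where 22 of the 24 were tested. In alcohol-exposed 3xTg-AD mice against alcohol-exposed WT mice the list had a median log2 fold change of -0.02 in broad classes and -0.02 in subclasses, where the 7 genes had -0.23 and -0.25.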

How the data were processed

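Per the labels and the study's methods, nuclei of the PFC were profiled with the 10x Chromium 3' kit and the authors aligned the reads to mm10 with Cell Ranger 6.1.1. The deposited values are UMI counts per gene and nucleus, not normalized, with the nuclei of all 16 mice in 1 table. The mouse of each nucleus was read from its column name.

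Nuclei were clustered with scanpy on 2000 variable genes, 30 principal components and 20 neighbours, and each cluster was given the non-glutamatergic class with the highest marker score if at least 3 of its markers were raised 1.5-fold over the other nuclei. It stayed unnamed if at least 2 glutamatergic markers were raised too, if another class had more markers among the 10 leading genes, or if it was shallow with no marker among them. Remaining clusters were called glutamatergic if at least 3 glutamatergic markers were raised 1.5-fold over the clusters already named, more than the GABAergic ones, and no non-neuronal class had 3 or more raised. Through this last condition 4 clusters (8375, 8282, 7444 and 10559 nuclei) with 7 or 8 glutamatergic markers so raised, beside at least 3 glial ones, stayed unnamed. Neuron subclusters with markers of another class were left out as well. These rules were set after the clusters were seen. The 7 genes were not among the markers. The doublet caller's automatic threshold marked 48 nuclei and was not used. An alternative left out the 6% of nuclei with the highest doublet scores in each mouse. Counts were summed per mouse and class where at least 10 nuclei were present in at least 3 mice per group. They were fitted with edgeR 4.0.16 (TMM, filterByExpr, robust quasi-likelihood, all 4 groups in 1 fit, Benjamini-Hochberg adjustment within class and comparison, call at an adjusted p of at most 0.05) in R 4.3.3. DESeq2 1.42.0, RLE scaling, no count filter, stricter nuclei filters, marker-count classes and leaving out single mice were alternatives. In data simulated for GABAergic nuclei of alcohol-exposed 3xTg-AD mice against WT controls (11154 genes), edgeR recovered 82% of 100 genes changed 2-fold and 28% of 100 changed 1.5-fold, with 2 false calls. The simulation gave all genes the same dispersion and changed only genes above a minimum mean count. Its shares therefore do not carry over to sparse genes, to genes that vary more between mice or to small subclasses.

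The members and lists were chosen with earlier results of these data known. All 7 genes are named. Tests named per comparison are those called or, where fewer than 3 were, those with the smallest p up to 3, and folds over all nuclei are named for alcohol-exposed 3xTg-AD mice against WT controls. Other folds over all nuclei were chosen after their values were seen. Groups without overlap within classes are given for the named tests, and their share over all tests within classes was not counted. Because these tests were named for small p-values, a lack of overlap among them is not separate support. For each gene the 3 genes most like it are named, except for Abat, whose result is not reported here, and of the 24 pathway genes those called.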

Additional observations from a re-analysis of the deposited data

Results flagged for a closer look

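Of 112 groups of 4 mice checked for a mouse far from the others, 8 had one, where chance gives about 1 in 20 groups, or 5.6. Over all nuclei, WT control mouse 27 was at 164 CPM of Gad1 against 73.6 to 81.8 CPM in the other WT controls, and at 108 CPM of Gad2 against 83.6 to 86.7 CPM. The same mouse had 174 CPM of Gad1 in astrocytes against 53.7 to 72.3 CPM. 3xTg-AD control mouse 12 was at 16.2 CPM of Slc6a11 over all nuclei against 22.1 to 23.2 CPM, and at 168 CPM of Gabbr2 in Vip nuclei against 129.7 to 134 CPM. WT alcohol-exposed mouse 6 was at 63.2 CPM of Abat over all nuclei against 53.7 to 54.7 CPM. 3xTg-AD control mouse 14 was at 168 CPM of Slc32a1 in Vip nuclei against 89.4 to 101 CPM. 3xTg-AD alcohol-exposed mouse 4 was at 109 CPM of Slc6a11 in astrocytes against 139 to 145 CPM.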

How the results depend on the processing

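Of 946 alternative values of the named tests, 895 kept their direction and side of the threshold, 24 lost and 11 gained a call, and 16 changed sign. Most named tests were not called and so had no call to lose, and the total says little about the calls. Gad2 in Sncg nuclei kept its call in 2 of 6 alternatives and in 8 of 16 fits without a single mouse. Gad2 over all nuclei, for genotype under alcohol, kept its call in 7 of 7 and in 9 of 16. Calls among the 7 genes over all nuclei numbered 1, 2 and 1 in DESeq2 for genotype without alcohol, genotype under alcohol and genotype with alcohol against WT controls, where the main counts were 0, 1 and 0, and 3 for genotype under alcohol without the 3 mice richest in Gm42418 (Gad2, Gad1 and Slc32a1). With no filter on low counts they numbered 1 in subclasses for alcohol in WT mice (Slc32a1 in Pvalb), 2 in subclasses for genotype under alcohol (Slc32a1 in Pvalb and Sst, while Gad2 in Sncg was lost) and 1 in broad classes for alcohol-exposed 3xTg-AD mice against WT controls (Gad1 in astrocytes). With marker-count classes there was 1 in broad classes for genotype under alcohol (Gad2 in glutamatergic nuclei), and the astrocyte median of Slc6a11 moved from 131 to 72.2 CPM. The 1 subclass call under alcohol became 0 with RLE scaling, in DESeq2 and without the highest doublet scores. Leaving out single mice gave 0 to 2 calls under alcohol in subclasses, 0 to 2 over all nuclei, and 0 to 1 in subclasses for alcohol in WT mice. The cause of these changes was not tested.

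Over all nuclei, Gabbr1 changed sign without the 3 mice richest in Gm42418, to -0.048 without alcohol and -0.039 in alcohol-exposed 3xTg-AD mice against WT controls. Slc6a11 under alcohol became 0.005 with RLE scaling, 0.005 in DESeq2 and 0.003 without those 3 mice. Without single mice, Slc6a11 ranged from -0.156 to 0.062 without alcohol and from -0.100 to 0.065 under alcohol, Gabbr1 from -0.05 to 0.087 without alcohol, and Gabbr2 from -0.227 to 0.003 without alcohol and from -0.19 to 0.04 in alcohol-exposed 3xTg-AD mice against WT controls. Marker-count classes gave no subclasses and no vascular leptomeningeal and mural fit. No paired analysis was possible because the groups share no replicate numbers. Sncg nuclei held few UMIs, which limits the precision of their levels.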
